A study of Mus musculus with 2 samples.

Results

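The genes described here are 10 glucocorticoid response genes of the mouse lung, *Fkbp5*, *Zbtb16*, *Tsc22d3*, *Sgk1*, *Klf9*, *Mt1*, *Mt2*, *Nr3c1*, *Hsd11b1* and *Errfi1*, out of 32285 genes counted. They were chosen by symbol, with their levels in these libraries and the ratio of those levels between the libraries already known, so their values are a description and carry no test. All 10 were found in both libraries. The cells were UV-positive lung cells, which were sorted alive from digested lungs by the autofluorescence of stored retinoid. The mice were wild type C57BL/6 males aged 3 months with no treatment, and the study ran its single-cell experiments on separate occasions. Each of the 2 libraries (library 1 and library 2) is 1 sample of the same condition, and the number of mice behind each is not stated in the sources used here. There was therefore no control group, and the design gives 2 questions: how far the libraries differed in these genes, and in which cells the genes were read.

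Glucocorticoids are steroid hormones of the adrenal cortex that enter cells and bind the glucocorticoid receptor, which *Nr3c1* encodes. The bound receptor leaves its chaperones, moves to the nucleus and binds a palindromic DNA element, where it raises the transcription of some genes and lowers that of others, many of them inflammatory. Blood levels follow a daily rhythm and rise with stress. In the lung the hormone is known for its part in the maturation of the alveoli and for the control of inflammation. The 10 genes stand at different points of this pathway. *Nr3c1* is the receptor, *Hsd11b1* is the enzyme that turns the inactive keto form of the hormone back into the active one inside cells, and *Fkbp5* is a co-chaperone that lowers the hormone binding of the receptor. *Tsc22d3* (also called Gilz), *Zbtb16*, *Klf9*, *Sgk1* and *Errfi1* are known targets. *Mt1* and *Mt2* encode metallothioneins, small proteins that bind zinc and copper and answer to metals as well as to glucocorticoids.

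The DNA before the start sites is shown for *Sgk1*, *Mt1* and *Mt2*, since *Sgk1* holds the 1 full hormone palindrome found among the windows, and since the proportion of the neighbours *Mt1* and *Mt2* is among the results. RefSeq windows on build GRCm38.p6, from 250 bases before to 50 bases after each start site, were used for 8 of the 10 genes, in 16 windows. None was searched for *Zbtb16* or *Nr3c1*. Both strands were searched for the full palindrome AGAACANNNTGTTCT, for its core ACANNNTGT, which lies within the full palindrome, and for the metal element cores TGCACNC and TGCGCNC. The full palindrome was found in 1 of the 16 windows, that of the fifth of 6 start sites of *Sgk1*, 189 bases before the start. Of all 32851 windows of the build, 3 held it (0.00913%). The sequence around it, on the plus strand at chr10:21993661-21993755, has the palindrome in capitals.
Sgk1: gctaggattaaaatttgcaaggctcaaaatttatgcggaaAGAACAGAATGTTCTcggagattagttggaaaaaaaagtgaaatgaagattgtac

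The core, held by 6.85% of all windows, was also found at another start site of *Sgk1*, 127 bases before it, and 92 bases before that of *Mt1*. The metallothionein genes lie side by side on chromosome 8, on the plus strand, with 5513 bases between the end of *Mt2* and the start of *Mt1*. The *Mt1* window held 3 metal cores and the *Mt2* window held 4, and 25.7% of all windows held at least 1. Of the other members' windows, that of *Hsd11b1* and the sixth of *Sgk1* held 1 each. Both metallothionein windows are printed from 250 bases before the start site through 28 bases after it, at chr8:94178839-94179116 for *Mt1* and chr8:94172368-94172645 for *Mt2*, with the metal cores of either strand in capitals.
Mt1: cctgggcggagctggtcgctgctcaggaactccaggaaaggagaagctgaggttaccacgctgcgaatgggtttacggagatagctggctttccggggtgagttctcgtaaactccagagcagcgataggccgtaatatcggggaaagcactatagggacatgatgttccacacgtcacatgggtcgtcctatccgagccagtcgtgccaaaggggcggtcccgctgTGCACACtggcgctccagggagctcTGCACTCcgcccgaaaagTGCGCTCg
Mt2: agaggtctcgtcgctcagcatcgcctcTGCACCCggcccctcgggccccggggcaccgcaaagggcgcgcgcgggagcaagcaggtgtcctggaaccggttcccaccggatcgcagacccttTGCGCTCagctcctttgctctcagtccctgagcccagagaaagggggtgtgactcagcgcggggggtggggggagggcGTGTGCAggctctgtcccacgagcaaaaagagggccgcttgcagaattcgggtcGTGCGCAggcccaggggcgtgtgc

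A match of letters is a description of the window and not a bound site. On GRCm38 the other genes lie at chr17:28399094-28517527 on the minus strand (*Fkbp5*), chr9:48654297-48836222 on the minus strand (*Zbtb16*), chrX:140539528-140600659 on the minus strand (*Tsc22d3*), chr19:23141226-23168134 on the plus strand (*Klf9*), chr1:193221634-193264075 on the minus strand (*Hsd11b1*) and chr4:150853919-150868892 on the plus strand (*Errfi1*). The counts come from the 3' end of transcripts, so levels are compared for 1 gene at a time and not between genes.

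Library 1 held 48762735 unique molecular identifiers (UMIs, each standing for 1 captured transcript) and library 2 held 93970185. After cells with under 200 detected genes or over 10% mitochondrial UMIs were left out, 9634 and 9988 cells remained, with a median of 4480 and 7577.5 UMIs, and 23 cell barcodes occurred in both libraries. Cells with at least 3 UMIs of the markers of exactly 1 class were grouped as stromal (*Col1a2*, *Mfap4*, *Pdgfra*), endothelial (*Cdh5*, *Pecam1*, *Egfl7*), epithelial (*Epcam*, *Cdh1*, *Lamp3*) or immune (*Ptprc*, *Laptm5*, *Cd52*). Stromal cells without *Dcn* were called alveolar and those with at least 3 *Dcn* UMIs adventitial. This gave 5805 and 5545 alveolar, 1017 and 998 adventitial, 56 and 360 endothelial, 930 and 101 epithelial, and 266 and 334 immune cells in libraries 1 and 2. In alveolar cells the summed markers of the endothelial, epithelial and immune classes stayed below 10 UMIs per 1000000 UMIs of the group (CPM) in either library, a low level that the rule itself sets, beside 4761 and 4553 CPM of the stromal markers. The epithelial surfactant transcript *Sftpc* stood at 493 and 121 CPM in alveolar cells and at 245331 and 196165 CPM in epithelial cells. Whether its UMIs in alveolar cells came from free RNA or from doublets was not tested. The lipofibroblast genes did not all favour alveolar cells. *Lrat* was at 296 and 109 CPM in alveolar cells of libraries 1 and 2, below the 365 and 232 CPM of adventitial cells. *Tcf21* was at 1070 and 846 CPM in alveolar and 478 and 317 CPM in adventitial cells. *Plin2* was at 211 and 181 CPM in alveolar and 93.2 and 151 CPM in adventitial cells.

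*Nr3c1*, the receptor itself, was read at nearly the same level in both libraries. In alveolar cells its level was 181 CPM and 167 CPM in libraries 1 and 2, 174 ± 9.91 (SD, n = 2), a log2 ratio of library 2 over library 1 of -0.12. Its levels in adventitial cells were 149 and 168 CPM, and in endothelial cells 184 and 212 CPM. Immune cells, at 76.4 and 105 CPM, and epithelial cells, at 57.9 and 71.0 CPM, were below the other 3 groups in both libraries. Among neighbours in the order endothelial, alveolar, adventitial, immune and epithelial, only the ranges of alveolar and adventitial cells overlapped. Some gaps were small. Endothelial cells, with 22 UMIs in library 1, had 184 CPM against 181 CPM in alveolar cells there. The lower immune level was 76.4 CPM and the higher epithelial level 71.0 CPM. The log2 ratio between the libraries lay between -0.12 and 0.46 over the 5 groups.

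*Hsd11b1*, the enzyme that regenerates active hormone, marked the stromal cells and above all those without *Dcn*. It stood at 1221 and 1544 CPM in alveolar cells (1382 ± 228, SD, n = 2) and at 487 and 625 CPM in adventitial cells, so that adventitial cells were 2.50- and 2.47-fold lower. Endothelial cells had 50.2 and 47.1 CPM, from 6 and 87 UMIs, and immune cells 29.6 and 30.9 CPM, from 26 and 56 UMIs. Epithelial cells had 1.97 and 9.52 CPM, from 17 and 13 UMIs, a level 621-fold and 162-fold below that of alveolar cells. No neighbouring groups overlapped in this order. Between the libraries the log2 ratio was 0.34 in alveolar and 0.36 in adventitial cells. After each cell was thinned to 2000 UMIs, 86.0% of alveolar cells of library 1 and 91.0% of library 2 had a UMI of *Hsd11b1*, beside 0.32% and 0.99% of epithelial cells, whose median depths before thinning were 9340 and 13627 UMIs.

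**Figure D1:**
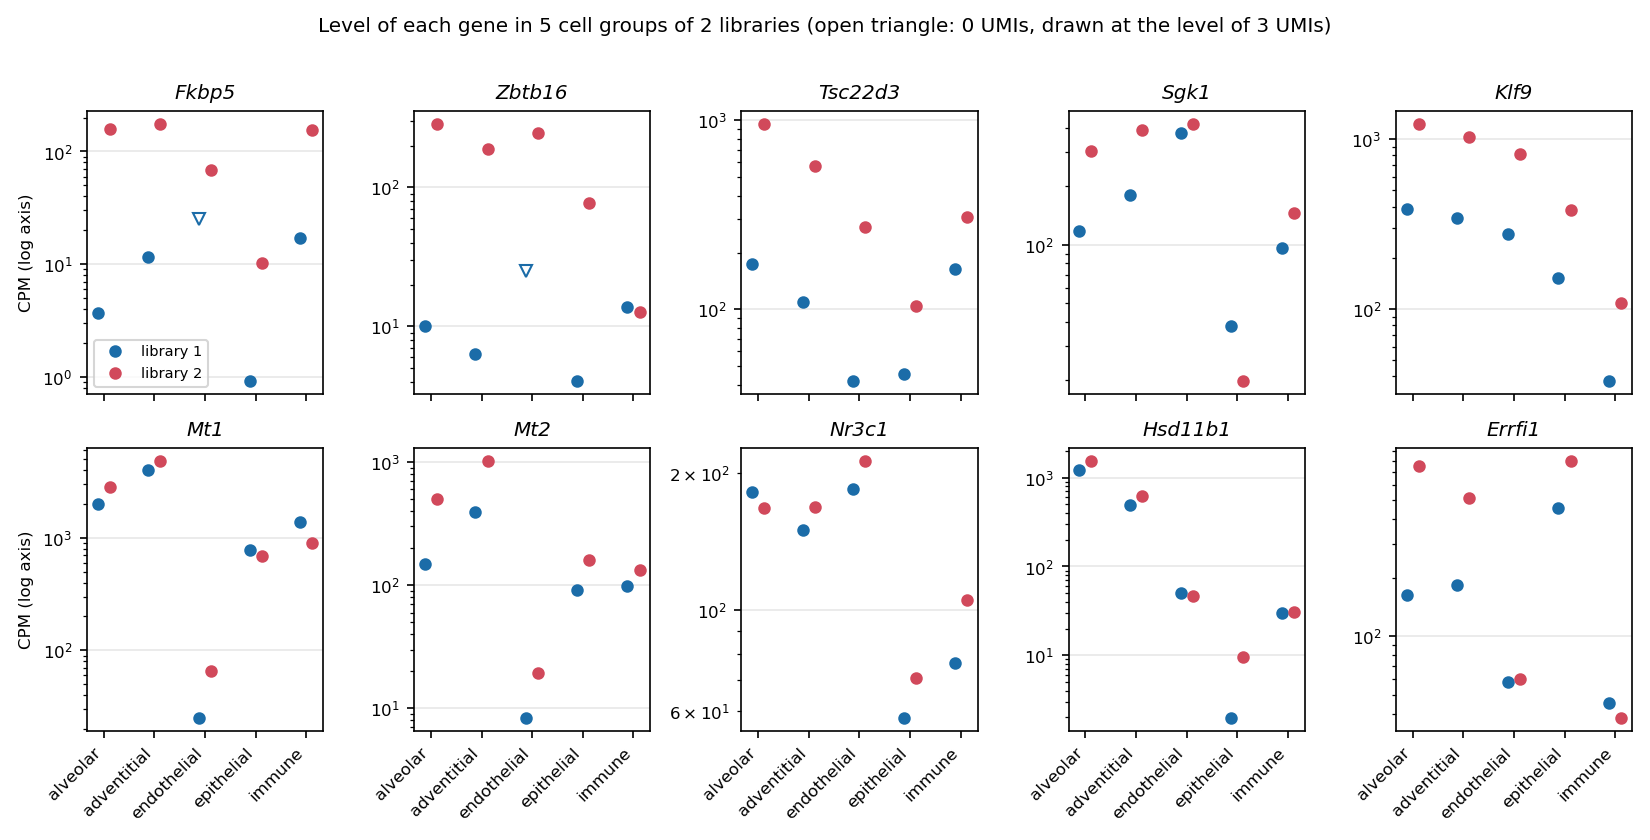
Level of each of the 10 genes in CPM (log axis) in the alveolar, adventitial, endothelial, epithelial and immune cells of library 1 (blue) and library 2 (red), 1 point per group and library, with an open triangle at the level of 3 UMIs where the count was 0. *Nr3c1* and *Hsd11b1* lie close together in the 2 libraries, at 181 and 167 CPM and at 1221 and 1544 CPM in alveolar cells, whereas *Fkbp5* lies at 3.71 and 159 CPM there.

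*Fkbp5*, the co-chaperone that restrains the receptor, had the largest ratio of the 10 genes in alveolar and in immune cells. Alveolar cells had 87 UMIs of it in library 1 and 6170 in library 2, or 3.71 and 159 CPM, a log2 ratio of 5.42 (95% counting interval 5.12 to 5.74). Adventitial cells had 11.5 and 175 CPM, a log2 ratio of 3.92, and immune cells 17.1 and 155 CPM, a log2 ratio of 3.18. In library 1 the adventitial and immune levels were thus 3.11- and 4.61-fold of the alveolar one, whereas in library 2 they were 1.10- and 0.974-fold of it. Endothelial cells had 0 UMIs of it in library 1, where 3 UMIs would have made 25.1 CPM, and 68.7 CPM in library 2. With the 0 set at 3 UMIs the level was 2.74-fold higher in library 2, and the counting interval began at 2.19-fold. Epithelial cells had only 8 and 14 UMIs, 0.92 and 10.3 CPM. Counting intervals cover counting error only and say nothing of the spread between mice.

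*Zbtb16*, a zinc finger transcription factor, showed a similar difference but left out the immune cells. It stood at 10.1 and 286 CPM in alveolar cells and at 6.32 and 189 CPM in adventitial cells, log2 ratios of 4.83 (4.64 to 5.02) and 4.90 (4.45 to 5.39). Endothelial cells had 0 UMIs in library 1 and 452 UMIs, 245 CPM, in library 2. That was 9.75-fold higher with the 0 set at 3 UMIs, and the counting interval began at 7.89-fold. Epithelial cells had 4.05 and 76.9 CPM. Immune cells had 13.7 and 12.7 CPM, from 12 and 23 UMIs, a log2 ratio of -0.11 with an interval of -1.18 to 1.03. Immune cells were therefore above alveolar cells by 1.36-fold in library 1 and below them by 22.5-fold in library 2. By size of ratio *Fkbp5* and *Zbtb16* were genes 1 and 2 of 8150 in alveolar cells, and *Zbtb16* was gene 1 and *Fkbp5* gene 3 of 8141 in adventitial cells, which is a property of how they were chosen.

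*Tsc22d3*, a leucine zipper protein that mediates anti-inflammatory actions of the hormone, was present in every group of both libraries and higher in library 2 in each. Its level was 174 and 956 CPM in alveolar cells, 109 and 574 CPM in adventitial cells and 41.8 and 274 CPM in endothelial cells, of which the last rests on 5 UMIs in library 1. Immune cells had 163 and 308 CPM and epithelial cells 45.5 and 104 CPM. The log2 ratio was 2.46 and 2.40 in the stromal groups, 1.19 in epithelial and 0.92 in immune cells. Alveolar cells were above adventitial cells in both libraries, by 1.60- and 1.67-fold, but the range of each group over the libraries overlapped that of its neighbour in the order throughout.

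*Klf9*, a zinc finger transcription factor, had the most even difference. Its level was 385 and 1223 CPM in alveolar, 344 and 1020 CPM in adventitial and 276 and 820 CPM in endothelial cells. Epithelial cells had 153 and 379 CPM and immune cells 37.6 and 108 CPM. The log2 ratio lay between 1.31 and 1.67 in the 5 groups, and the order of the groups was the same in both libraries. Immune cells were separated from epithelial cells, while the ranges of the other neighbours overlapped.

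*Sgk1*, a kinase that acts on ion channels and transporters, was highest in endothelial cells and its ratio turned with the group. Endothelial cells had 376 and 419 CPM, adventitial cells 181 and 389 CPM and alveolar cells 117 and 303 CPM. Immune cells had 95.8 and 146 CPM and epithelial cells 38.1 and 19.8 CPM, the last from 27 UMIs in library 2. The log2 ratio was 1.37 in alveolar, 1.10 in adventitial, 0.16 in endothelial and 0.60 in immune cells, and -0.95 (-1.57 to -0.38) in epithelial cells. Epithelial cells were separated from immune cells, and no other neighbours were.

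*Errfi1*, an inhibitor of the epidermal growth factor receptor, was high in epithelial and stromal cells. Epithelial cells had 459 and 798 CPM, alveolar cells 163 and 754 CPM and adventitial cells 183 and 517 CPM. Endothelial cells, at 58.6 and 60.1 CPM, and immune cells, at 45.6 and 38.1 CPM, were below these in both libraries. The log2 ratio was 2.21 in alveolar and 1.50 in adventitial cells, 0.80 in epithelial, 0.04 in endothelial and -0.26 in immune cells. In library 1 epithelial cells were 2.82-fold above alveolar cells and in library 2 they were 1.06-fold above them.

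*Mt1* and *Mt2* were highest in adventitial and lowest in endothelial cells. *Mt1* stood at 4010 and 4818 CPM in adventitial, 2000 and 2830 CPM in alveolar, 1384 and 895 CPM in immune and 777 and 689 CPM in epithelial cells, and none of the neighbouring groups overlapped. Endothelial cells had 3 UMIs of it in library 1 and 121 in library 2, 25.1 and 65.5 CPM, a log2 ratio of 1.38 with an interval of -0.20 to 3.68. *Mt2* stood at 391 and 1021 CPM in adventitial and 148 and 500 CPM in alveolar cells, log2 ratios of 1.38 and 1.76. Its level was 91.8 and 159 CPM in epithelial and 99.2 and 133 CPM in immune cells. The ratios of *Mt1* were smaller, at 0.26 in adventitial and 0.50 in alveolar cells, and below 0 in epithelial (-0.17) and immune (-0.63) cells. Among alveolar cells of 4000 to 6000 UMIs, an alternative chosen after the data were seen, with 2174 and 1642 cells, the log2 ratio of *Mt1* was -0.47, opposite in sign, and that of *Mt2* was 0.68.

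The proportion of the metallothionein transcripts differed between the libraries in the same direction in every group but the endothelial cells, which had only 4 UMIs of the pair in library 1. There were 13.5 *Mt1* UMIs per *Mt2* UMI in alveolar cells of library 1 and 5.66 in library 2, and 10.3 and 4.72 in adventitial cells. Epithelial cells had 8.47 and 4.34, and immune cells 14.0 and 6.71, with intervals of 11.2 to 17.6 and 5.86 to 7.71. Stromal cells with 1 or 2 *Dcn* UMIs, which are in neither stromal group, had 11.1 and 5.37. Endothelial cells had 3 and 1 UMIs in library 1, which gives no usable proportion (3.00, interval 0.24 to 157), beside 3.36 (2.30 to 5.02) in library 2. Both genes come from the same cells and totals, so this proportion does not depend on the scaling to CPM.

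**Figure D2:**
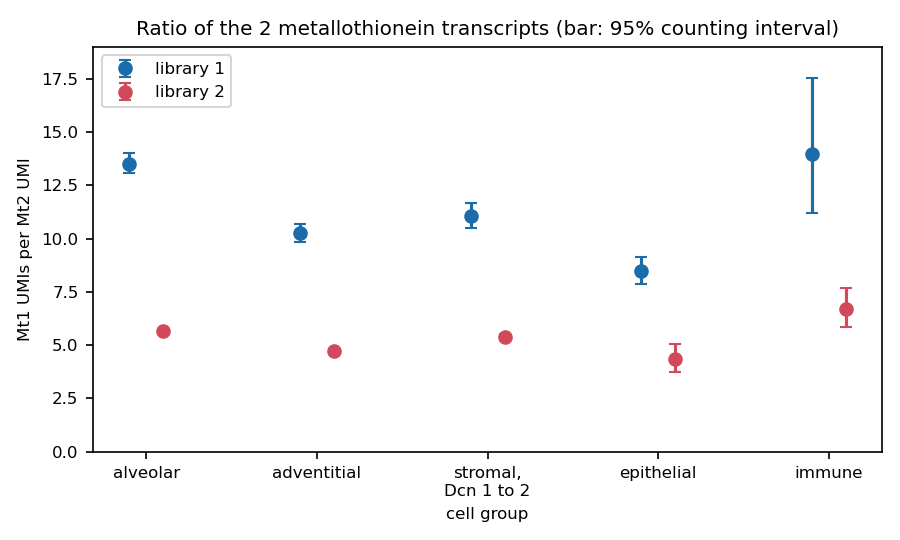
Number of *Mt1* UMIs per *Mt2* UMI (linear axis from 0) in 4 of the cell groups and in stromal cells with 1 or 2 *Dcn* UMIs, for library 1 (blue) and library 2 (red), with bars for the 95% counting interval. Every red point lies below the blue point of its group, at 5.66 against 13.5 in alveolar and 6.71 against 14.0 in immune cells.

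Counted at a 2-fold difference, over genes whose mean level in the group reached 10 CPM, 7 of the 10 genes were higher in library 2 in alveolar cells (*Fkbp5*, *Zbtb16*, *Tsc22d3*, *Sgk1*, *Klf9*, *Mt2* and *Errfi1*), beside 3.64% of the 8150 genes that passed, and none was lower, beside 2.36%. *Fkbp5* in alveolar and endothelial cells, *Zbtb16* in adventitial, endothelial and epithelial cells and *Mt2* in endothelial cells passed this minimum through library 2 only, since the level in library 1 was below it. The same 7 were higher in adventitial cells, beside 5.53% of all genes higher and 2.68% lower. In endothelial cells 6 of 10 were higher, beside 12.7% higher and 12.4% lower among all genes, with only 119534 UMIs in library 1, and 3 were higher when each cell was thinned to 2000 UMIs. Epithelial cells had 3 of 8 higher (*Klf9*, *Tsc22d3* and *Zbtb16*), with *Fkbp5* and *Hsd11b1* under the minimum, beside 4% higher and 1.57% lower. In immune cells 2 of 10 were higher (*Fkbp5* and *Klf9*), beside 9.83% higher and 4.92% lower, and among the 66 and 81 immune cells of 4000 to 6000 UMIs 5 were higher and 1 lower. *Klf9* was the 1 gene at least 2-fold higher in all 5 groups, beside 0.143% of the 4902 genes that passed in all 5, and 0.163% were lower in all 5. The values nearest to a 2-fold line were those of *Sgk1* in adventitial cells (1.10, or 0.92 when centred on the median of all genes, which ends that call) just past it, and those of *Sgk1* in epithelial cells (-0.95, past the line under 4 alternatives) and *Tsc22d3* in immune cells (0.92) just short of it. The genes were selected on these ratios, so nothing is read from the counts.

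The median log2 ratio of all genes was 0.11 in alveolar, 0.19 in adventitial, -0.02 in endothelial, 0.11 in epithelial and 0.14 in immune cells, and the ratios above are relative to the total UMIs of the group and not to these medians. Centred on them, *Nr3c1* in adventitial cells turned from 0.17 to -0.02. Alveolar cells had a median depth of 3958 UMIs in library 1 and 6545 in library 2. Among alveolar cells of 4000 to 6000 UMIs the log2 ratio was 5.82 for *Fkbp5*, 5.16 for *Zbtb16*, 2.74 for *Tsc22d3*, 1.76 for *Klf9*, 2.35 for *Errfi1* and 1.01 for *Sgk1*. That of *Mt2* was 0.68 in these cells, short of 2-fold, and that of *Hsd11b1* was 0.76.

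**Figure D3:**
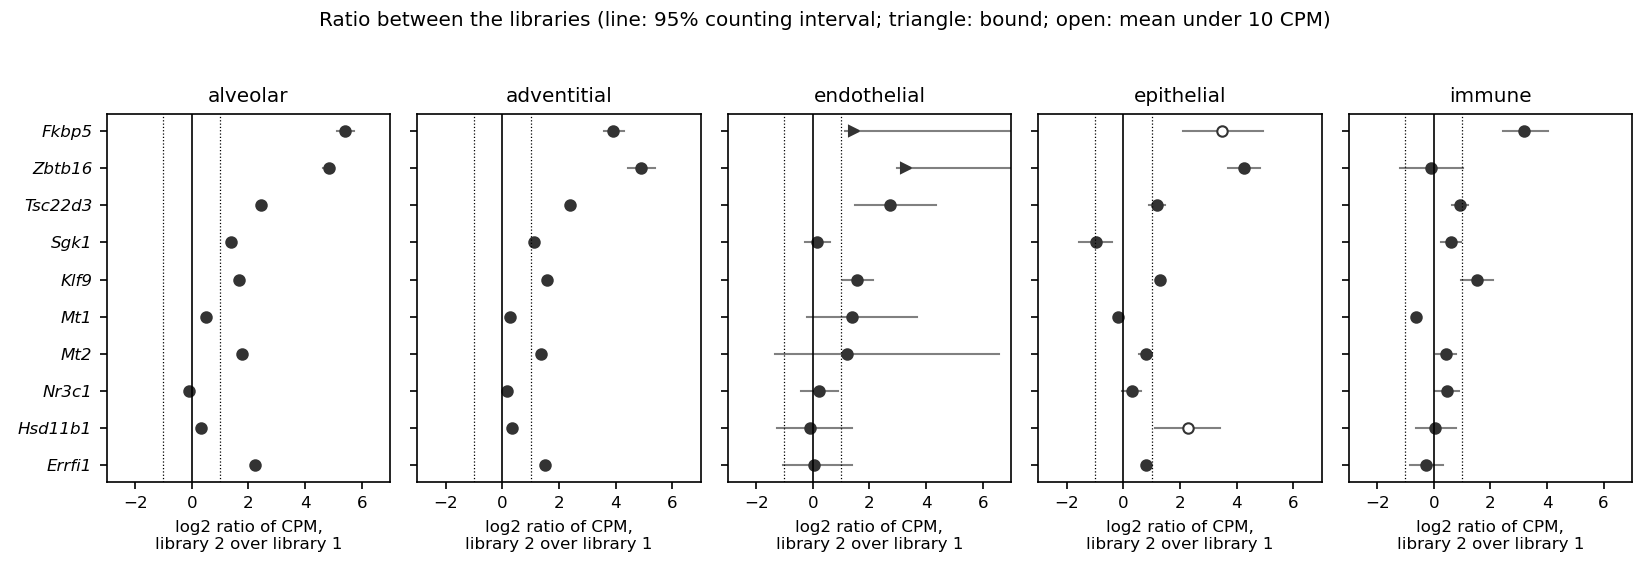
Log2 ratio of CPM of library 2 over library 1 for the 10 genes in each of the 5 cell groups, with lines for the 95% counting interval, dotted lines at a 2-fold difference, triangles for lower bounds against a count of 0, and open points for a mean under 10 CPM. *Fkbp5* and *Zbtb16* lie farthest to the right in the stromal groups (5.42 and 4.83 in alveolar cells), and the intervals are widest in endothelial cells, where *Mt2* rests on 1 UMI in library 1.

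The differences went with a larger share of cells that had a UMI. With each cell thinned to 2000 UMIs, which left 5070 and 5504 alveolar cells and left out 735 and 41 shallower ones, *Fkbp5* was read in 0.65% of alveolar cells of library 1 and 27.0% of library 2. The share was 2.03% and 41.9% for *Zbtb16*, 25.3% and 79.0% for *Tsc22d3*, and 49.9% and 88.2% for *Klf9*. It was 22.8% and 65.4% for *Errfi1* and 15.3% and 35.5% for *Sgk1*, against 30.1% and 27.3% for *Nr3c1*. Before thinning, *Fkbp5* was read in 2.43% and 65.0% of all stromal cells, with exact Clopper-Pearson intervals of 2.10 to 2.80% and 63.9 to 66.1%. Of the 10 genes the median alveolar cell had a UMI of 3 in library 1 and of 5 in library 2, and the same medians held in adventitial cells. Epithelial cells had a median of 2 in both libraries, and immune cells of 1 and 2.

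**Figure D4:**
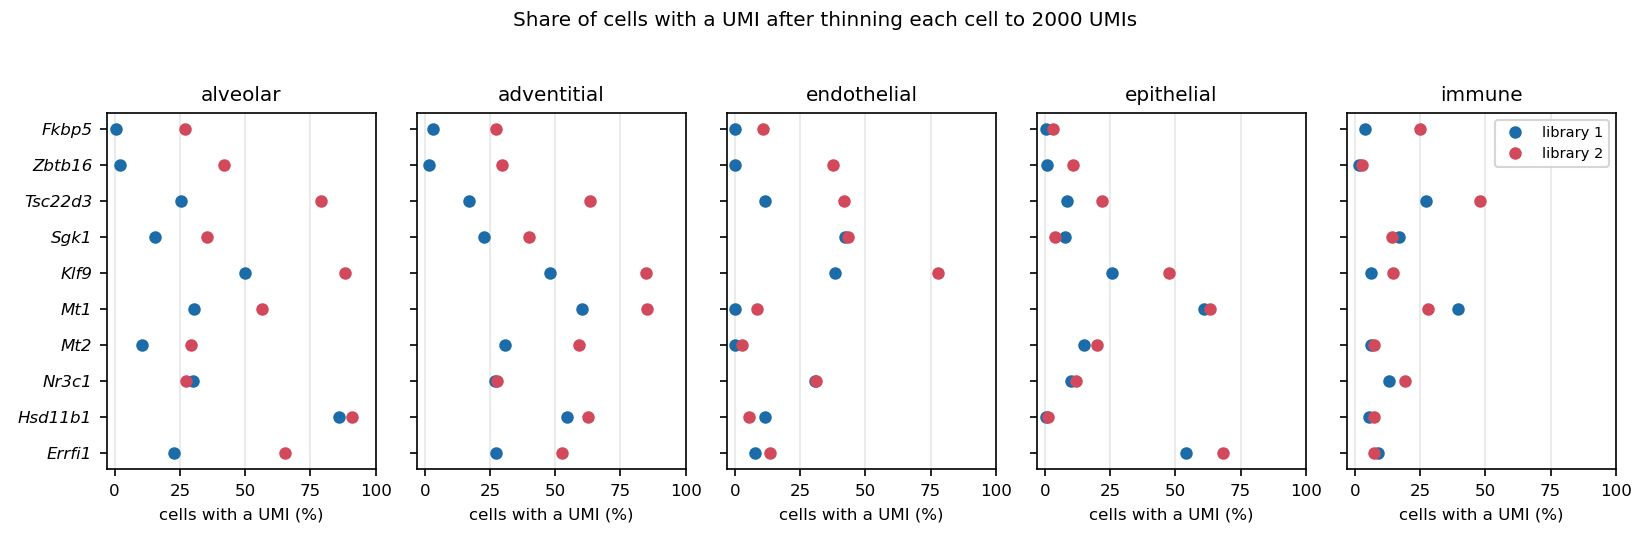
Share of cells (%) with at least 1 UMI of each gene after each cell was thinned to 2000 UMIs, for library 1 (blue) and library 2 (red) in the 5 cell groups. In alveolar cells *Fkbp5* moves from 0.65% to 27.0% and *Tsc22d3* from 25.3% to 79.0%, while *Nr3c1* stays at 30.1% and 27.3%.

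In each group and library where it was computed, the highest correlation of 2 members over single cells was that of the metallothioneins. Over thinned cells the correlation of *Mt1* with *Mt2* was 0.53 in the 5070 alveolar cells of library 1 and 0.75 in the 5504 of library 2, and 0.58 and 0.79 in adventitial cells. The next pair in size in those 2 groups was *Sgk1* with *Mt2* in adventitial cells of library 2, at 0.28. *Tsc22d3* and *Mt1* had -0.21 in alveolar cells of library 2. In smaller groups of library 2, *Sgk1* with *Nr3c1* had 0.29 in 101 epithelial cells and *Fkbp5* with *Klf9* had 0.28 in 310 immune cells. These are Pearson values of sparse counts from cells of 1 library, given as a description. Thinned *Fkbp5* was read in only 0.65% of alveolar cells of library 1. Low values of such scarce genes therefore cannot show whether they vary together. Over the 10 points made by the 5 groups and 2 libraries, which share libraries and cells, the pairs with the highest correlation of log2(CPM + 1) were *Mt1* with *Mt2* (0.95), *Fkbp5* with *Tsc22d3* (0.92) and *Sgk1* with *Nr3c1* (0.87).

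Finer cell types with at least 20 cells in each library gave the same picture of *Fkbp5* in the stroma. In immune cells the counts were small, and the intervals of the 3 types overlapped. In *Pi16*-positive adventitial cells (154 and 49 cells) *Fkbp5* stood at 8.23 and 165 CPM and *Tsc22d3* at 55.5 and 603 CPM. Stromal cells with *Hhip* or *Aspn* (116 and 256 cells) had 12.8 and 159 CPM of *Fkbp5* and 66.6 and 680 CPM of *Tsc22d3*. General capillary endothelial cells (43 and 222 cells) had *Klf9* at 301 and 905 CPM and *Sgk1* at 347 and 440 CPM. Among immune cells, monocytes (62 and 51 cells) had 3 and 61 UMIs of *Fkbp5*, a log2 ratio of 4.05 with an interval of 2.44 to 6.37. Neutrophils (56 and 28 cells) had 2 and 12 UMIs, a log2 ratio of 2.93 with an interval of 0.76 to 6.13. B cells (27 and 61 cells) had 2 and 7, a log2 ratio of 0.23 with an interval of -2.17 to 3.53. *Tsc22d3* was highest among these 3 in B cells, at 330 and 748 CPM. Monocytes and neutrophils made up a larger part of the immune cells in library 1 than in library 2, so the immune levels mix the types in different proportions.

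Cells that the marker rule left out had high ratios of the same genes. Stromal cells with 1 or 2 *Dcn* UMIs (823 and 895 cells) had log2 ratios of 4.35 for *Fkbp5*, 4.87 for *Zbtb16*, 2.48 for *Tsc22d3* and 1.61 for *Klf9*, and of 0.04 for *Mt1* and 0.07 for *Nr3c1*. Cells with markers of several classes, which can be doublets and numbered 420 and 1640, had 4.37 for *Fkbp5* and 5.04 for *Zbtb16*. Cells with no class, 317 and 115 of them, had 0 and 17 UMIs of *Fkbp5*. That was 11.8-fold higher in library 2 with the 0 set at 3 UMIs, and the counting interval began at 8.56-fold.

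Other genes of the pathway were read for the same contrast between the libraries, from lists chosen with earlier results of these data known, and with no test, since each side is 1 library. Of 28 other genes known to be induced by glucocorticoids, 20 passed the minimum of 10 CPM in alveolar cells, of which 8 were at least 2-fold higher in library 2 and none lower, beside the 3.64% and 2.36% of all genes above. Their median log2 ratio was 0.83, against 0.11 for all genes. This minimum is a mean over the libraries, and *Map3k6* and *Pdk4* passed it through library 2 only. *Map3k6*, a stress kinase, stood at 6.49 and 67.5 CPM. *Pdk4*, which restrains glucose oxidation, stood at 7.85 and 65.8 CPM, and *Angptl4*, an inhibitor of lipoprotein lipase, at 88.2 and 620 CPM. *Glul*, glutamine synthetase, stood at 121 and 504 CPM. Not all of the list followed, and *Dusp1* (1699 and 2043 CPM), *Nfkbia* (273 and 271 CPM) and *Cebpd* (2701 and 2559 CPM) were within 2-fold. In adventitial cells 9 of 20 were at least 2-fold higher and none lower (5.53% and 2.68% of all genes), and in endothelial cells 11 of 20 were higher and 1 lower (12.7% and 12.4%). As in alveolar cells, a gene could pass the minimum through 1 library only in these and the other groups. Epithelial cells had 6 of 18 higher and 1 lower (4% and 1.57%), with a median of 0.27 against 0.11 for all genes. Immune cells had 6 of 20 higher and 2 lower (9.83% and 4.92%), and there the median of the list, 0.09, was below that of all genes, 0.14.

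Of 8 inflammatory genes that the hormone is known to repress, few were measurable. In alveolar cells 3 passed the minimum and all 3 were at least 2-fold lower in library 2, *Ccl2* having passed through library 1 only: the chemokine *Ccl2* stood at 42.1 and 3.61 CPM, the cytokine *Il6* at 62.0 and 14.5 CPM and the chemokine *Cxcl1* at 55.4 and 20.3 CPM. In adventitial cells the same 3 were among 4 that passed, with *Il6* at 209 and 29.0 CPM, and *Ptgs2* (63.7 and 45.7 CPM) stayed within 2-fold. Epithelial and endothelial cells had 1 measurable gene each, within 2-fold in the former and lower in the latter. Immune cells had 3 of 5 lower, *Ccl2* (401 and 48.0 CPM), *Il1b* (2364 and 1010 CPM) and *Tnf* (65.0 and 30.9 CPM). The immune cell types were mixed in different proportions, as above. Of all genes, 2.36% were lower in alveolar, 2.68% in adventitial, 12.4% in endothelial, 1.57% in epithelial and 4.92% in immune cells. Of 14 genes for the receptor's chaperones, coregulators and steroid handling, 9 passed in alveolar cells. Of these the coregulator *Nrip1* was higher, at 45.3 and 113 CPM, and the chaperone *Fkbp4*, which favours hormone binding where *Fkbp5* lowers it, was lower, at 123 and 61.2 CPM. *H6pd*, which supplies cofactor to *Hsd11b1*, stood at 215 and 261 CPM. Neither of the 2 metal response genes that passed, *Mtf1* and *Hmox1*, differed by 2-fold in alveolar cells, at 11.1 and 16.0 CPM and at 10.3 and 12.3 CPM.

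Clock genes, which belong to the daily rhythm that the hormone also follows, also differed between the libraries. In alveolar cells 7 of 9 that passed were at least 2-fold higher in library 2 and 1 was lower (3.64% and 2.36% of all genes). Of these, *Dbp* passed through library 2 only and *Arntl* through library 1 only. *Dbp* stood at 9.13 and 233 CPM, *Tef* at 16.3 and 98.0 CPM and *Nr1d1* at 51.0 and 272 CPM, while *Arntl* stood at 34.7 and 4.02 CPM. *Per1*, which is on both the clock and the induced list, stood at 35.3 and 83.4 CPM. Epithelial cells had 7 of 9 higher and *Arntl* lower as well (4% and 1.57% of all genes). *Arntl* stood at 20.1 and 2.93 CPM there and passed through library 1 only. Adventitial cells had 7 of 9 higher and 1 lower (5.53% and 2.68%). Endothelial cells had 2 of 10 higher and 3 lower, beside 12.7% and 12.4% of all genes, with only 119534 UMIs in library 1. Immune cells had 2 of 4 higher and none lower, beside 9.83% and 4.92%. The sources used here give no time of day for either library. Of 10 genes known to rise with tissue dissociation, 2 were at least 2-fold lower in alveolar cells of library 2 (2.36% of all genes). They were *Atf3* (1795 and 534 CPM) and *Fos* (6832 and 3383 CPM), and the list summed to 23868 and 13998 CPM. In endothelial cells 9 of the 10 dissociation genes were lower, beside 12.4% of all genes. The part of the time of day and of the dissociation in the ratios of the 10 genes was not tested. With 1 library a side, these, the mice and the preparation cannot be told apart.

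**Figure D5:**
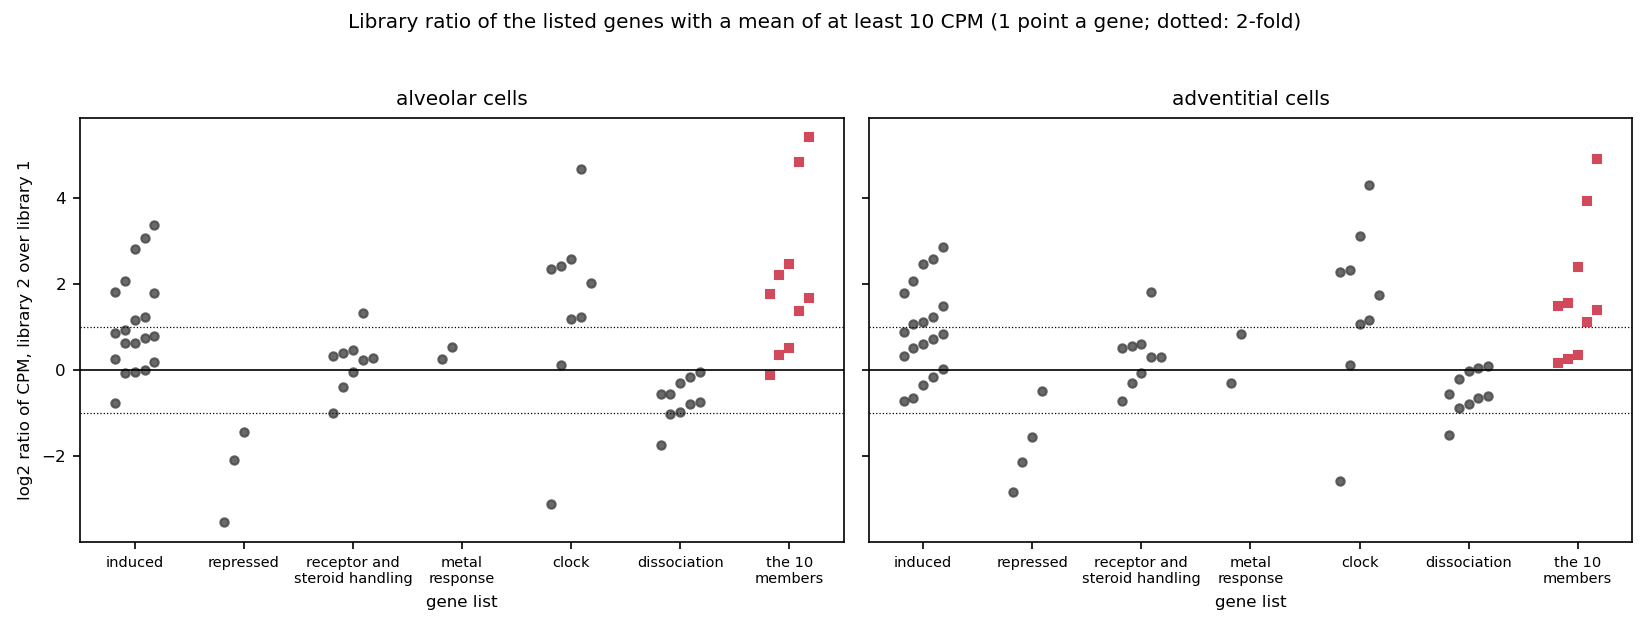
Log2 ratio of CPM of library 2 over library 1 for the genes of each list whose mean reached 10 CPM (grey, 1 point per gene) and for the 10 glucocorticoid response genes (red), in alveolar and adventitial cells, with dotted lines at a 2-fold difference. All 3 repressed genes of alveolar cells lie below the lower line, 8 of 20 induced and 7 of 9 clock genes lie above the upper line, and *Arntl* is the clock gene at the bottom.

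The same lists were compared between cell groups, where both libraries serve as replicates. UMIs summed per library and group were tested with edgeR's quasi-likelihood test with the library as a block over 13326 genes, two-sided, with Benjamini-Hochberg adjustment. Of 55 listed genes other than the clock and dissociation lists, 49 were tested. In adventitial against alveolar cells, 5 were higher and 3 lower at an adjusted p under 0.05, beside 5.76% of all genes higher and 2.95% lower. The higher ones were 4 of the 6 tested repressed genes and the cell cycle inhibitor *Cdkn1a*. *Ptgs2*, the inducible cyclooxygenase, was higher by 3.40 on the log2 scale (adjusted p = 1.18e-07), *Il6* by 1.46 (adjusted p = 0.0169), *Cxcl1* by 1.22 and *Ccl2* by 1.04 (adjusted p = 0.0129). The lower ones were the induced genes *Txnip* (-1.75), *Mertk* (-1.30) and *Angptl4* (-0.82, adjusted p = 0.0199). Of these calls, *Ptgs2* alone was also made as higher without the library block and by DESeq2. Among the lower genes, edgeR without the block called 0 (1 at an unadjusted p under 0.05), while DESeq2 called *Mertk* and *Txnip*.

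Against alveolar cells, endothelial cells had 9 listed genes higher and 19 lower, beside 14.8% and 18.2% of all genes. *Fam107a*, higher by 7.33, and *Abcb1a*, a drug and steroid exporter of vessel walls, higher by 3.96, passed the test, as did the zinc exporter *Slc30a1*, higher by 3.09. *Fam107a* was not among the genes called by DESeq2 or in cells with no UMI of another class's markers. *Angptl4* was lower by 5.77 on the log2 scale and *H6pd* by 5.54. Epithelial cells had 9 higher and 21 lower, beside 24.4% and 26.8%, with 5 higher without the block. There the epithelial sodium channel subunit *Scnn1a*, higher by 7.51, and *Lcn2*, higher by 8.34, led the induced list, and *Crispld2* was lower by 7.82. Immune cells had 14 higher and 17 lower, beside 24.2% and 28.3%, and 9 lower without the block or 11 with DESeq2. The scavenger receptor *Cd163* was higher by 9.85 and the cytokines *Il1b* and *Tnf* by 11.9 and 10.8. *Cd163* and *Tnf* each had 1 UMI over the alveolar cells of both libraries, so the size of these fitted differences depends on the prior count, beside 13.7 and 28.1 CPM of *Cd163* and 65.0 and 30.9 CPM of *Tnf* in immune cells. *H6pd* was lower by 4.78 and *Nr3c2*, the mineralocorticoid receptor, by 2.09. *H6pd*, the partner of *Hsd11b1*, was thus lower than in alveolar cells in endothelial, epithelial (-1.20) and immune cells.

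Genes whose levels went most like those of each member over the 10 points of 5 groups and 2 libraries were taken from 8796 other genes whose mean reached 10 CPM, by Pearson's r of log2(CPM + 1). For *Zbtb16* they were *Armc8* (0.96), the clock output gene *Dbp* (0.95) and *Cipc* (0.94), a regulator of the clock. *Hsd11b1* had *Plxdc2*, *Itga8* and *Ppp1r14a* (0.99 each), and *Nr3c1* had *Heg1* (0.99), *Vat1* and *Smap1* (0.98 each). *Klf9* had *Blzf1* and *Errfi1* had *Klhl21* (0.98 each), *Sgk1* had *Nod1* and *Slc25a24* (0.98 each), and *Tsc22d3* had *Lncpint* (0.97). *Fkbp5* had *Rlf* (0.95), and *Mt1* and *Mt2* had *Asph* (0.97) and *Parp3* (0.95) as their first gene. The points share libraries, so these values are a description of 10 profiles.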

How the data were processed

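UV-positive lung cells of 2 libraries (1 group, replicates 1 and 2) were analysed. The authors made 10x Genomics 3' libraries and deposited, per the labels, filtered UMI counts of each gene in each cell barcode, made with Cell Ranger 5.0.1 on mm10, with no normalization. The values were whole-number counts over 32285 genes. The rule for members, cells and groups, and all gene lists, were chosen with earlier results of these data known.

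UMIs were summed per library and group, scaled to CPM and divided between the libraries, with exact Clopper-Pearson 95% intervals, and a count of 0 was set at 3 UMIs. These cover counting error only. A gene needed a mean of 10 CPM to count as 2-fold different. Cells were thinned to 2000 UMIs with seed 1. No doublet caller was run. The named genes are the 10 members, at most 4 past the threshold per list and comparison with the largest absolute log2 value, and the 3 most like each member. *Dusp1*, *Nfkbia*, *Cebpd*, *H6pd*, *Per1*, *Ptgs2*, *Mtf1* and *Hmox1* were also named from these lists after their values were seen.

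Other listed genes were tested with edgeR 4.0.16 (R 4.3.3) with TMM factors, its default filter and the library as block, because each library gave every cell group, and DESeq2 1.42.0 was an alternative. The block takes out the overall difference between the libraries, so p-values measure how far the differences between groups varied between these 2 libraries. Whether the libraries came from separate mice is not given in the sources used here, so the spread between mice is not measured. Python 3.11.15 with pandas 2.3.3 and scipy 1.17.1 was used. Gene positions are from GENCODE vM21.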

Additional observations from a re-analysis of the deposited data

Results flagged for a closer look

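The ratio between the libraries had opposite signs in different cell groups for 3 genes with counting intervals that left out 0 on both sides. With 1 library a side in each group, the difference was not tested. *Sgk1* had a log2 ratio of library 2 over library 1 of 1.37 in alveolar cells and -0.95 in epithelial cells, the latter from 330 and 27 UMIs. *Mt1* had 0.50 in alveolar and -0.63 in immune cells, and the 2 libraries held different proportions of immune cell types. Among alveolar cells of 4000 to 6000 UMIs the ratio of *Mt1* was -0.47, so its sign in alveolar cells depended on depth. *Nr3c1* had 0.46 in immune cells, with an interval of 0.055 to 0.89, and -0.12 in alveolar cells. The different proportions of immune cell types bear on its immune ratio as well.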

How the results depend on the processing

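The ratios of the 10 genes between libraries were recomputed under up to 10 alternatives (other scalings, stricter markers, thinning, cells without the deepest 10%, and similar), of which cells of 4000 to 6000 UMIs was chosen after the data were seen and used only in alveolar and immune cells. Of 470 values, 366 stayed within the counting interval of the reported one. In 17 the sign turned, 15 of them where the reported ratio was within 2-fold. In alveolar cells *Fkbp5* kept a log2 ratio of 5.31 to 5.82 and *Tsc22d3* of 2.35 to 2.74. Thinned to 2000 UMIs, endothelial cells (26 of 56 left in library 1) had 3 of the genes at least 2-fold higher and 1 (*Mt2*) lower. There *Mt1* came out at -0.041 and *Mt2* at -2.17, but both had 0 UMIs in library 1 and some in library 2. These values are therefore set by the floor of 3 UMIs and say nothing of a direction. Thinned immune cells had 1 lower. In epithelial cells 1 gene was at least 2-fold lower under TMM scaling, under centring on the median of all genes, with a marker sum of at least 5 and without the deepest cells. Among cells of 4000 to 6000 UMIs immune cells had 5 higher and 1 lower. The log2 difference of immune over alveolar cells was -0.038 without library 1 and 2.20 without library 2 for *Fkbp5*, and -4.49 without library 1 and 0.44 without library 2 for *Zbtb16*, so that it turned in sign with the library left out. Of the tested counts between cell groups, 34 of 40 stayed within 1.5 times. With DESeq2, adventitial cells had 1 listed gene higher and immune cells 11 lower. Without the replicate block, adventitial cells had 1 higher and 0 lower (1 at an unadjusted p under 0.05), epithelial cells 5 higher and immune cells 9 lower, and the cause was not tested. Leaving out a library leaves 1 sample a group and no test, and was not run for the tested counts. Depth limits the endothelial cells of library 1, where 3 UMIs make 25.1 CPM.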
